A study of Mus musculus with 6 samples.

Results

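Dendritic cells are the antigen-presenting cells that take up material in the lung and show it to T cells, and 9 genes that mark their classes, with Xcl1, the gene of a lymphocyte chemokine that acts on one of those classes, were followed in smoke-exposed mouse lung. The 10 genes were chosen by symbol from a table of 57180 rows, and each symbol matched 1 row. FTO_OE lungs (3 libraries) came from mice that overexpress FTO, an enzyme that removes a methyl group from adenosines in RNA, and WT lungs (3 libraries) came from wild-type mice. Animals of both genotypes had been exposed to cigarette smoke, in a study that models chronic obstructive pulmonary disease, so the effect of smoke itself is not measured here. The labels give neither the mice's age, sex and strain, nor how FTO was overexpressed, nor whether each library came from a separate mouse. The p-values then measure only the spread between these samples, which may be technical.

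Conventional dendritic cells of type 1 (cDC1) take up dying cells and present their antigens to CD8 T cells. They arise under the transcription factors IRF8 and BATF3 and carry the receptor XCR1, to which XCL1 from CD8 T cells and natural killer (NK) cells binds. Type 2 cells (cDC2) mainly present antigen to CD4 T cells, plasmacytoid dendritic cells (pDC) make type I interferon, and mature cells on their way to the lymph node make the chemokines CCL17 and CCL22. All of these are rare in whole lung, and their transcripts were a small part of each library: the 10 genes together made up 0.00992% to 0.0136% of each library's counts.

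The libraries held 16731850 to 21444907 counts. Fto stood at 650.1 to 740.8 CPM in FTO_OE and at 66.2 to 69.9 CPM in WT libraries (CPM: a gene's reads as parts per 1e6 of the library, after TMM scaling of the library totals), as the labels call for. Lung genes were abundant in all 6 libraries, from 11476 to 15070 CPM for the surfactant gene Sftpc. Over all 16989 genes tested with edgeR's quasi-likelihood test, 16 passed an adjusted p of 0.05, or 0.0942% (0.0765% higher and 0.0177% lower in FTO_OE), and 1603 had an unadjusted p under 0.05, or 9.44% (5.77% higher and 3.67% lower). The libraries of the 2 groups did not overlap for 14.9% of genes.

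For none of the dendritic cell genes was a difference between the genotypes detected. Of the 9 members with enough reads to test, 0 passed an adjusted p of 0.05 and 0 had an unadjusted p under 0.05, and DESeq2 and limma-voom also called 0, where they called 2.50% and 0.0294% of all genes. The levels of the 2 groups overlapped for all 10 members. Fold changes of the 9 members ran from 0.693 for Flt3 to 1.38 for Siglech, with edgeR adjusted p between 0.615 and 0.989. 3 of the 9 lay above 0 on the log2 scale (Xcr1, Irf8 and Siglech), against 51.5% of all genes tested, and the median log2 fold change was -0.24 over the 9 and 0.0069 over all genes. In bulk tissue, fewer cells of a type and less RNA per cell cannot be told apart.

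**Figure D1:**
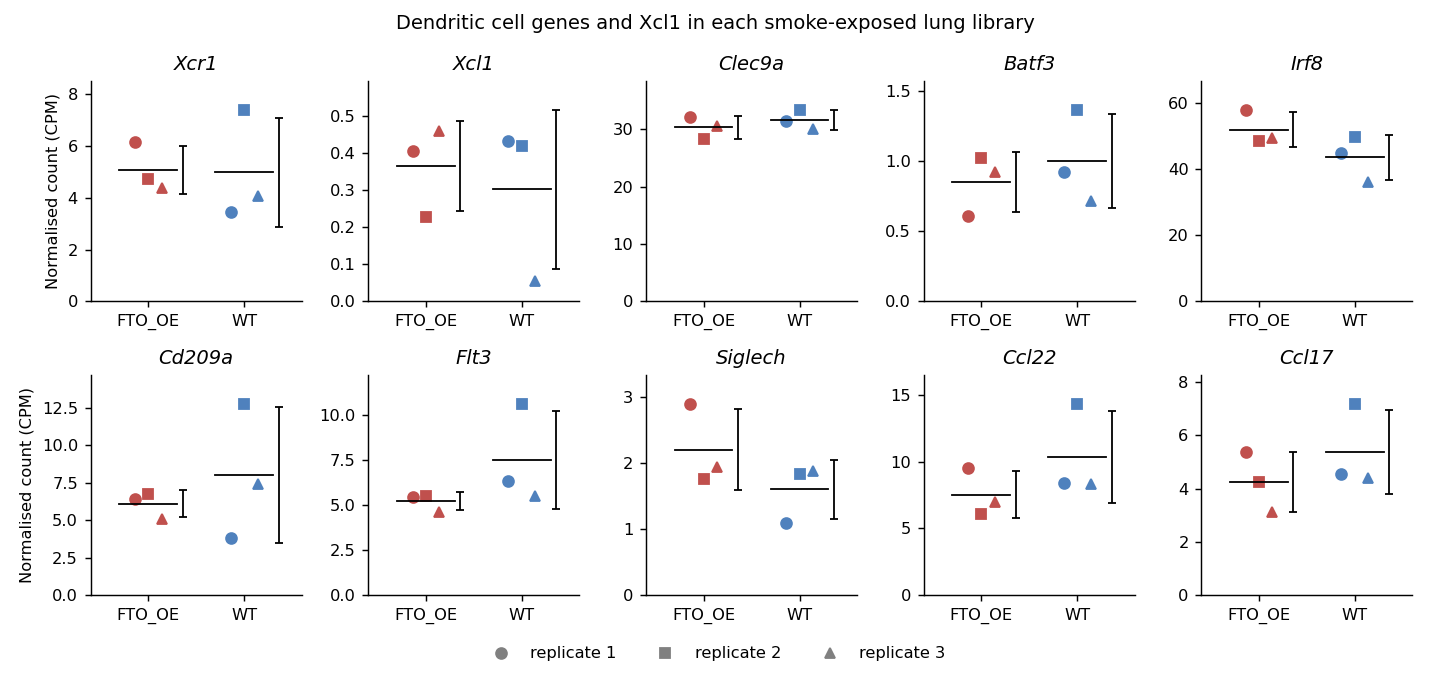
Normalised count in CPM (y axis, from 0) of each of the 10 genes in the 3 FTO_OE and the 3 WT libraries; the marker shape gives the replicate number, the line the mean and the bar 1 SD (n = 3). The groups overlap in every panel, and replicate 2 of WT is the highest point for Xcr1, Clec9a, Batf3, Cd209a, Flt3, Ccl22 and Ccl17.

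Among the cDC1 genes, Xcr1 (ENSMUSG00000060509), the chemokine receptor that marks this class, had 6.15, 4.72 and 4.38 CPM in FTO_OE lungs, against 3.47, 7.41 and 4.07 CPM in WT lungs. The means were 5.08 ± 0.938 CPM in FTO_OE and 4.98 ± 2.12 CPM in WT (SD, n = 3 each). The ratio of 1.02 had a 95% interval of 0.617 to 1.68 (edgeR adjusted p = 0.989). The WT libraries thus spread over a wider range than the FTO_OE libraries, which all fell inside it. The estimated counts of Xcr1 were not whole numbers in 6 of 6 libraries; those of Clec9a were not in 2 of 6, and those of the other 8 members were whole throughout.

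Clec9a (ENSMUSG00000046080), which encodes the receptor DNGR-1 that binds the exposed actin of dead cells, had the smallest spread of all members in both groups, with a coefficient of variation of 6.47% in FTO_OE and 5.43% in WT. It had 32.2, 28.3 and 30.5 CPM in FTO_OE lungs, against 31.5, 33.4 and 29.98 CPM in WT lungs. The ratio was 0.959 (95% interval 0.833 to 1.10; edgeR adjusted p = 0.899), so a fall below 0.833-fold or a rise above 1.10-fold lay outside the interval. The Clec9a locus overlaps that of Clec1b, a receptor gene of platelets, on the same strand in the GENCODE M21 annotation, and Clec1b held 326 to 493.1 reads a library. How reads between these neighbours were divided is not given in the sources used here. The number of Xcr1 reads per Clec9a read was 0.192, 0.166 and 0.143 in FTO_OE lungs, against 0.109, 0.221 and 0.135 in WT lungs, a difference that did not pass (exact permutation test, two-sided p = 0.7; 0.8 after adjustment over 4 ratios chosen after the values were seen; n = 3 each, smallest possible p 0.1).

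Of the transcription factors that build this class, Irf8 (ENSMUSG00000041515) had 57.9, 48.3 and 49.4 CPM in FTO_OE lungs, against 44.9, 49.6 and 36.1 CPM in WT lungs. Its ratio was 1.19 (95% interval 0.965 to 1.47; edgeR adjusted p = 0.624), and WT replicate 2 lay above the 2 lower FTO_OE libraries. The Irf8 locus overlaps Gm20388, a protein-coding gene on the same strand in the GENCODE M21 annotation, for which no counts are given. IRF8 is also made by B cells, monocytes and macrophages and is induced by interferon gamma. The interferon gamma gene Ifng was 9.89-fold higher in FTO_OE lungs (95% interval 5.39 to 18.2; edgeR adjusted p = 0.0361). It belongs to a list chosen with its higher level known, and its part in the Irf8 value was not tested. The summed level of 8 B cell genes was 119.0, 112.0 and 115.0 CPM in FTO_OE lungs, against 171.0, 107.8 and 66.1 CPM in WT lungs. The part of B cells in the Irf8 value was not tested either. Batf3 (ENSMUSG00000026630), the partner factor without which this class is largely lost in mice, rested on 12, 18 and 20 reads in FTO_OE lungs and 17, 26 and 13 reads in WT lungs. Its ratio was 0.849 (95% interval 0.463 to 1.56; edgeR adjusted p = 0.909), so a fall below 0.463-fold or a rise above 1.56-fold lay outside the interval.

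The XCL1 ligand was close to the limit of detection. Xcl1 (ENSMUSG00000026573) had 8, 4 and 10 reads in FTO_OE lungs and 8, 8 and 1 reads in WT lungs, which left it under the edgeR filter on low counts, so it has no test among the 16989 genes. Its locus overlaps Gm20743 on the opposite strand in the GENCODE M21 annotation. Gm20743 had 3, 0 and 1 reads in FTO_OE and 0 in each WT library. How reads between the 2 were divided is not given in the sources used here. The exact 95% Poisson interval was 1.09 to 10.2 reads for the lowest FTO_OE library and 0.0253 to 5.57 reads for the lowest WT library, and intervals of this kind cover counting error only. Summed over libraries, 22 reads in FTO_OE and 17 in WT gave a ratio per normalised library of 1.22 (95% counting interval 0.620 to 2.45). Fitted without that filter, it had a log2 fold change of 0.28 ± 0.708 (SE; edgeR adjusted p = 0.948).

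Some genes of the lymphocytes known to make XCL1 rose. Of the 15 other genes of CD8 T and NK cells tested, 5 rose past an adjusted p of 0.05 (Klrk1, Cd8a, Ifng, Tbx21 and Cd8b1), 0 fell, all 15 lay above 0 and the median log2 fold change was 2.47. This list was chosen with the higher level of such genes in these libraries known, so its count is no independent evidence of the direction. Over all genes, 0.0765% were called higher in edgeR. DESeq2 called 13 of the 15 and limma-voom 0, beside 2.50% and 0.0294% of all genes. Without WT replicate 2, WT replicate 3, FTO_OE replicate 2 or FTO_OE replicate 3, edgeR called 0 of the 15. It called 2 without WT replicate 1 and 9 without FTO_OE replicate 1. Over all genes these fits called only 1, 1, 1, 6, 11 and 49 genes, in that order. The median log2 fold change of the list ran from 2.29 to 2.79 over 15 alternatives. Cd8a, a subunit of the CD8 co-receptor, was 7.03-fold higher (95% interval 4.28 to 11.6; edgeR adjusted p = 0.0300). The interval of Cd8a takes in the spread between libraries, and the counting interval of Xcl1 does not. Cd8a also comes from the list chosen in this way, so the 2 intervals cannot be compared. Per 1000 reads of these 15 genes there were 1.21, 0.4999 and 0.618 reads of Xcl1 in FTO_OE lungs, against 3.95, 6.25 and 0.803 in WT lungs. A denominator chosen with its higher level in FTO_OE lungs known pulls the ratio down there. The ratio is thus no evidence about Xcl1 per lymphocyte. WT replicate 3, with its single read, fell among the FTO_OE libraries. The exact permutation test gave a two-sided p of 0.2, or 0.8 after adjustment over the 4 ratios (n = 3 each). With a smallest possible p of 0.1, it could not have passed 0.05.

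**Figure D2:**
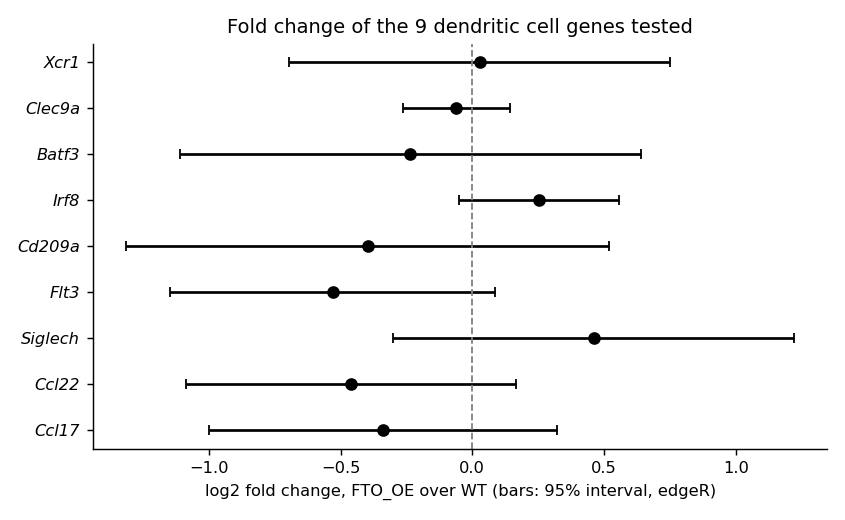
Log2 fold change of FTO_OE over WT (x axis) for the 9 genes tested; points are fitted values and bars 95% intervals from edgeR. All 9 intervals cross 0, and that of Clec9a is the narrowest, at -0.26 to 0.14.

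A gene shared by dendritic cell classes and one of cDC2 had lower means in FTO_OE than in WT lungs, and both were highest in the same WT library. Flt3 (ENSMUSG00000042817), a growth factor receptor gene of conventional dendritic cells and their precursors, had 5.44, 5.52 and 4.61 CPM in FTO_OE lungs, against 6.34, 10.6 and 5.50 CPM in WT lungs. Its ratio was 0.693 (95% interval 0.451 to 1.06; edgeR adjusted p = 0.615), and 0.876 without WT replicate 2. Cd209a (ENSMUSG00000031494), a lectin gene of cDC2 and monocyte-derived dendritic cells, had 6.40, 6.77 and 5.07 CPM in FTO_OE lungs, against 3.79, 12.8 and 7.43 CPM in WT lungs. The WT libraries held both the highest and the lowest value, and the ratio of 0.759 (95% interval of 0.402 to 1.43, edgeR adjusted p = 0.837) turned to 1.08 without WT replicate 2.

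The pDC gene Siglech (ENSMUSG00000051504), a sialic acid-binding receptor gene, had 2.90, 1.76 and 1.94 CPM in FTO_OE lungs, against 1.08, 1.84 and 1.87 CPM in WT lungs. FTO_OE replicate 1 lay above the rest, WT replicate 1 below them, and the other 4 libraries were close together. The values rested on 57, 31 and 42 reads in FTO_OE and 20, 35 and 34 reads in WT. The ratio was 1.38 (95% interval 0.812 to 2.33; edgeR adjusted p = 0.758).

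Ccl22 and Ccl17 encode the ligands of the receptor CCR4 on regulatory and type 2 helper T cells. In RefSeq's GRCm38.p6 the genes are neighbours on 1 strand of chromosome 8, with 1 protein-coding gene, the chemokine gene Cx3cl1, between them. The genome build behind the deposited table is not given in the sources used here. The promoter windows of the pair are shown because the genes are neighbours whose products share a receptor. Each runs from 250 bases before to 50 bases after the annotated start, 5′ to 3′ on the plus strand, at chr8:94745434-94745733 for Ccl22 and chr8:94810203-94810502 for Ccl17. Capitals mark a match to the motif of STAT6, the factor through which interleukin 4 acts: TTC, 4 bases of any kind, then GAA.
Ccl22: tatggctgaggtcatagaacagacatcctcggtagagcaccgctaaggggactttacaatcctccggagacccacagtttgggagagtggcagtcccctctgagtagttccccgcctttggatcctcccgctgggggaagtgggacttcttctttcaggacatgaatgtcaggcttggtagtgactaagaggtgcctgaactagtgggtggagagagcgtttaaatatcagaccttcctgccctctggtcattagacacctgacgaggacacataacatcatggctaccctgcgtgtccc
Ccl17: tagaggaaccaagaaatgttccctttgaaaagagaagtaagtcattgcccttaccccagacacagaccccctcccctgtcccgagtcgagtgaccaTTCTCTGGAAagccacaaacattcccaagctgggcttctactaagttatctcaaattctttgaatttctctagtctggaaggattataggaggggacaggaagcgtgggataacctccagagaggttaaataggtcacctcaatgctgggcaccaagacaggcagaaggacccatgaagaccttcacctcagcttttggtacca
The match begins 154 bases before the Ccl17 start. This motif, which reads the same on both strands, occurs in 6.95% of 32851 such windows. 4 other motifs were searched on both strands: an NF-kB site (GGGA, 1 base, TTTCC; in 0.411% of windows), an AP-1 site (TGA, 1 base, TCA; 7.81%), the ETS-IRF element to which IRF8 binds with an ETS factor (GGAA, 2 bases, GAAA; 2.72%) and the interferon response element (GAAA, 2 bases, GAAA; 3.44%). 0 of these 4 matched in either window. All 10 members had a window, and the only other match was an ETS-IRF element beginning 9 bases before the Cd209a start, on the reverse strand. These are matches of letters, not sites shown to be bound.

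Ccl22 (ENSMUSG00000031779) had 9.50, 6.08 and 6.96 CPM in FTO_OE lungs, against 8.40, 14.3 and 8.31 CPM in WT lungs. Its ratio was 0.727 (95% interval 0.471 to 1.12; edgeR adjusted p = 0.681), and 0.902 without WT replicate 2. Ccl17 (ENSMUSG00000031780) had 5.39, 4.26 and 3.14 CPM in FTO_OE lungs, against 4.55, 7.20 and 4.40 CPM in WT lungs, and its ratio was 0.791 (95% interval 0.501 to 1.25; edgeR adjusted p = 0.797). Both were highest in WT replicate 2 and, among FTO_OE libraries, in replicate 1, as Xcr1 and Clec9a were too. Of the other FTO_OE libraries, Ccl22 was higher in replicate 3 and Ccl17 in replicate 2. There were 1.76, 1.43 and 2.22 reads of Ccl22 per read of Ccl17 in FTO_OE lungs, against 1.85, 1.99 and 1.89 in WT lungs (exact permutation test, two-sided p = 0.7; 0.8 adjusted over the 4 ratios; n = 3 each, smallest possible p 0.1). The receptor gene Ccr4 had a ratio of 1.06, with a 95% interval of 0.586 to 1.93 (edgeR adjusted p = 0.973).

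Most members had their highest level in the same library, a pattern described after the values were seen. 7 of the 10 were highest in WT replicate 2, whereas 14.8% of all genes tested were highest there. These 7 are not separate observations. Their levels were correlated over the 6 libraries, from Pearson r = 0.19 for Clec9a and Batf3 to 0.90 for Clec9a and Ccl22. For Clec9a the lead was small, at 33.4 CPM against 32.2 CPM in FTO_OE replicate 1. In the wider lists the same library held the highest level of 5 of 10 other cDC1 genes and 8 of 16 other migratory genes, of 3 of 13 other shared genes, 2 of 8 other cDC2 genes and 2 of 14 other pDC genes. Wdfy4, a gene needed for cross-presentation, had 57.5, 44.2 and 47.4 CPM in FTO_OE lungs, against 52.2, 73.5 and 42.7 CPM in WT lungs. Genes of lymph node stroma stood high in the same library: of 6, the 3 with enough reads to test (Ccl19, Ccl21a and Cxcl13) were all highest in WT replicate 2. Ccl21a, a chemokine gene with near-identical copies in the mouse, had 81.3, 68.9 and 82.8 CPM in FTO_OE lungs, against 44.8, 121.0 and 81.6 CPM in WT lungs. The summed level of the 6 was 76.1 to 93.3 CPM in FTO_OE and 52.1 to 138.9 CPM in WT libraries. Glycam1, of lymph node venules, was among those with too few reads to test. Glycam1 was at 0 in 5 libraries and near the limit of detection, at 0.158 CPM, in WT replicate 2, so it carries no weight in this pattern. The values of Madcam1 and Chst4, which also had too few reads to test, are not given here. The part of lymphoid tissue in the dendritic cell values was not tested. B cell genes did not share this pattern, since all 8 were highest in WT replicate 1. Without WT replicate 2 the log2 fold changes were 0.43 for Xcr1, 0.055 for Batf3, 0.12 for Cd209a, -0.19 for Flt3, -0.15 for Ccl22 and -0.072 for Ccl17, with edgeR adjusted p of 0.923 or more.

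**Figure D3:**
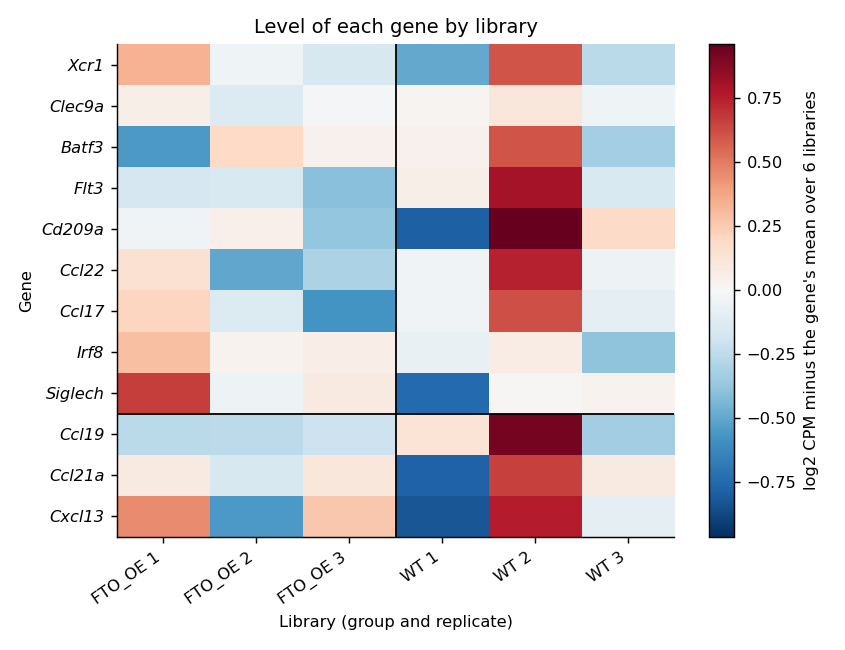
Log2 CPM of each gene minus its own mean over the 6 libraries (colour), for 9 members above the horizontal line and 3 lymph node stroma genes below it; columns are libraries, FTO_OE left and WT right of the vertical line. The WT replicate 2 column holds the highest value of every row except Irf8 and Siglech.

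Of the 5 wider lists of dendritic cell genes, 0 held a gene past an adjusted p of 0.05 in edgeR, beside 0.0942% of all genes. At an unadjusted p under 0.05, 1 of 14 cDC1 genes was lower, 1 of 9 cDC2 genes was lower, 2 of 14 shared genes were higher, 2 of 18 migratory genes were lower and 3 of 15 pDC genes were higher, with 0 in the other direction in each list. Over all genes tested, 5.77% were higher and 3.67% lower at that level. Each list held at least 1 gene whose groups did not overlap. Lower in FTO_OE were 1 of 14 cDC1, 1 of 9 cDC2 and 3 of 18 migratory genes. Higher were 1 of 14 shared and 3 of 15 pDC genes. Over all genes the share was 14.9%, and no list was tested against it. The median log2 fold changes were -0.060 for cDC1, 0.034 for cDC2, 0.051 for shared, -0.15 for migratory and 0.28 for pDC genes, beside 0.0069 over all genes. Of the other cell types, 0 of 13 monocyte and macrophage genes, 0 of 8 B cell genes and 0 of 3 lymph node genes passed in edgeR, with medians of -0.040, 0.014 and -0.086; at an unadjusted p under 0.05 the first of these lists had 2 genes higher and 1 lower, and the others 0. Without WT replicate 2 the medians were 0.032 for cDC1 and -0.018 for migratory genes. DESeq2 called 3 genes in the 5 dendritic cell lists, 1 in the monocyte and macrophage list and 0 in the B cell and lymph node lists. In all of them limma-voom called 0. Over all genes DESeq2 called 2.50% and limma-voom 0.0294%.

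The 3 dendritic cell list genes were Id2, Runx2 and Cd200. Id2, a repressor needed for cDC1 and also made by NK and CD8 T cells, had 123.3, 128.8 and 151.8 CPM in FTO_OE lungs, against 82.3, 86.2 and 73.4 CPM in WT lungs. All FTO_OE libraries lay above all WT libraries, and the ratio was 1.67 (95% interval 1.41 to 1.98), with an adjusted p of 0.0746 in edgeR and 8.19e-07 in DESeq2. Runx2, which promotes the exit of pDC from the bone marrow and is also made by activated T cells, had 15.8, 21.7 and 24.7 CPM in FTO_OE lungs, against 13.4, 9.98 and 9.13 CPM in WT lungs (edgeR adjusted p = 0.167, DESeq2 adjusted p = 0.00301). Both genes are made by the lymphocytes whose genes were higher in FTO_OE lungs: the summed level of the 16 CD8 T and NK cell genes was 335.2, 455.2 and 746.3 CPM in FTO_OE and 110.1, 67.7 and 68.5 CPM in WT libraries. For both, as for that sum, FTO_OE replicate 3 was the highest library. Among WT libraries, Runx2 and the sum were highest in replicate 1. Id2 was highest in WT replicate 2, where the sum was lowest. The lymphocyte list was chosen with its higher level in FTO_OE lungs known. The part of lymphocytes in the values of Id2 and Runx2 was not tested. Cd200, an inhibitory surface glycoprotein gene that endothelium also expresses, had 202.6, 155.7 and 188.3 CPM in FTO_OE lungs, against 238.9, 239.7 and 238.9 CPM in WT lungs (edgeR adjusted p = 0.248, DESeq2 adjusted p = 0.0330).

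The gene from the monocyte and macrophage list was Ly6c2, which marks inflammatory monocytes, is also made by memory CD8 T cells and has a near-identical neighbour, Ly6c1, with which reads may be shared. It had 105.1, 104.2 and 169.0 CPM in FTO_OE lungs, against 76.1, 71.4 and 40.3 CPM in WT lungs. All FTO_OE libraries lay above all WT libraries, and the ratio was 2.01 (95% interval 1.29 to 3.14), with an adjusted p of 0.251 in edgeR and 0.00381 in DESeq2. Ccr2, the chemokine receptor of the same monocytes, which activated T cells also carry, had 167.5, 143.4 and 184.4 CPM in FTO_OE lungs, against 139.9, 75.0 and 62.5 CPM in WT lungs. These groups did not overlap either (ratio 1.79, 95% interval 1.14 to 2.81; edgeR adjusted p = 0.387). Mertk, a macrophage receptor for dying cells, was at 0.740-fold in FTO_OE (95% interval 0.569 to 0.963), which edgeR did not call (adjusted p = 0.450). The summed level of the 13 genes of that list was 2526, 1711 and 2010 CPM in FTO_OE and 3123, 2194 and 2175 CPM in WT libraries, and the part of monocytes in the dendritic cell values was not tested.

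Among the remaining genes with the smallest p of their list, Cadm1, an adhesion molecule gene of cDC1 that lung epithelium also makes, had a ratio of 0.812, with a 95% interval of 0.704 to 0.936 (edgeR adjusted p = 0.293). Tnfsf9, the gene of the costimulatory ligand 4-1BBL, had one of 0.601 (95% interval 0.423 to 0.855; edgeR adjusted p = 0.305). Among migratory genes, Socs2, of a suppressor of cytokine signalling, was at 0.850-fold in FTO_OE (95% interval 0.727 to 0.993; adjusted p in edgeR 0.505). Nudt17, of the nudix hydrolase family, was at 0.609-fold on 9 to 24 reads a library (95% interval 0.358 to 1.04; edgeR adjusted p = 0.576). For both, all FTO_OE libraries lay below all WT libraries. Ccr7, the receptor that leads mature dendritic cells to the lymph node and that naive T cells also carry, had 6.50, 6.31 and 7.42 CPM in FTO_OE lungs, against 14.9, 8.77 and 6.55 CPM in WT lungs (edgeR adjusted p = 0.617). Among shared genes, Ciita, the regulator of MHC class II genes, which B cells also make, had 99.1, 57.8 and 51.5 CPM in FTO_OE lungs, against 53.8, 40.5 and 45.8 CPM in WT lungs (edgeR adjusted p = 0.524). Flt3l, the ligand of FLT3, which T and NK cells make, had 13.8, 26.1 and 17.9 CPM in FTO_OE lungs, against 12.9, 12.8 and 16.1 CPM in WT lungs (edgeR adjusted p = 0.605). The interferon regulator gene Irf7, high in pDC, had a ratio of 1.43, with a 95% interval of 1.08 to 1.88 (edgeR adjusted p = 0.382), and Ccr9, a homing receptor of pDC and T cells, one of 1.61 (95% interval 1.01 to 2.55; edgeR adjusted p = 0.519).

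**Figure D4:**
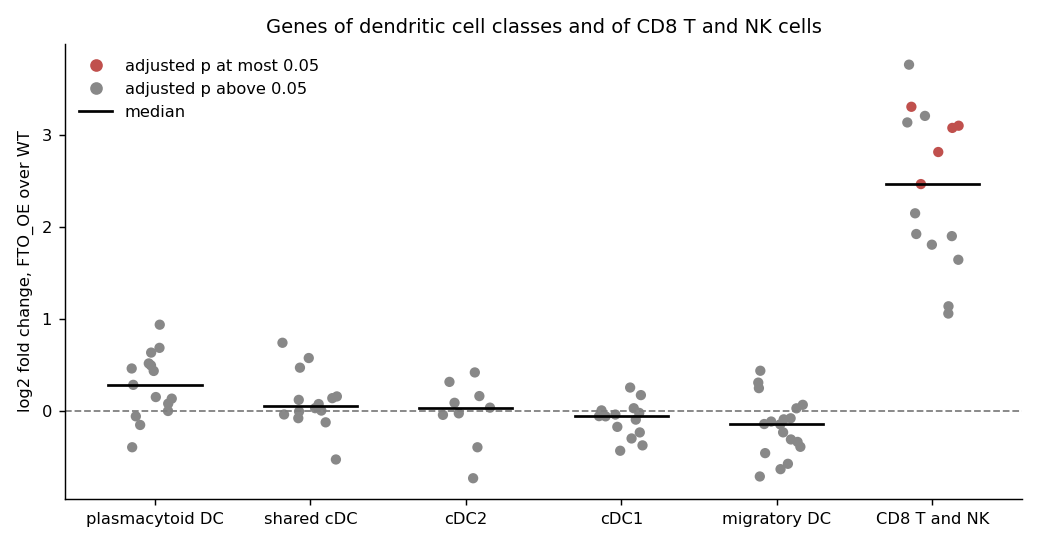
Log2 fold change of FTO_OE over WT (y axis) for the genes tested in 5 dendritic cell lists and in the list of CD8 T and NK cell genes (points, red where the edgeR adjusted p is at most 0.05); lines are medians. The dendritic cell medians lie between -0.15 and 0.28 and that of the lymphocyte genes at 2.47.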

How the data were processed

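RNA of 6 lung samples was measured with a stranded kit that selects polyadenylated RNA, per the labels' protocols. The deposited table holds the authors' expected counts, estimates of the reads of each gene without scaling to library size. In each library 9.66% to 10.3% of its rows were not whole. Per the submitters' processing notes, fastp, HISAT2 and StringTie were used. No source used here gives their versions, the genome build, the annotation or whether counting was strand-aware, so reads of overlapping genes cannot be told apart. Rows without a symbol (525, with 0.119% to 0.143% of counts) carry gene identifiers and were kept.

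Columns were matched to samples by the column names in the labels. Counts were rounded and tested in R 4.3.3 with edgeR 4.0.16 (filterByExpr, TMM, quasi-likelihood F-test, group as the only term), with Benjamini-Hochberg adjustment over 16989 genes and a threshold of 0.05. Alternatives used DESeq2 1.42.0, limma 3.58.1 (voom), other scalings and filters, a replicate block and each library left out. The procedure was tested on simulated counts. Members and the 10 gene lists (118 entries, all found, 2 by RefSeq synonyms) were chosen with earlier results of these data known. All members were named, and from the lists at most 4 other genes each, in order of p. The ratios of reads, Wdfy4, Cd8b1 and the genes highest in WT replicate 2 were described after their values were seen. Promoter windows are from RefSeq (GRCm38.p6). Within a group, libraries differed well beyond counting noise (28.1 to 48.7 as chi-square divided by its degrees of freedom), so none was treated as a duplicate. Between the groups this measure ran from 20.9 (replicate 1 of each) to 46.6, so some libraries of different groups were more alike than any within a group.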

Additional observations from a re-analysis of the deposited data

How the results depend on the processing

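The number of members past an adjusted p of 0.05 was 0 under every alternative run, including thresholds of 0.01 and 0.1, DESeq2 and limma-voom. The number of genes called over the whole table was 16 and moved to 287 with no filter on low counts, 2 with the replicate block, 424 with DESeq2, 5 with limma-voom, 31 when genes of haemoglobin, immunoglobulins and the mitochondrial genome were left out, 1 at a threshold of 0.01 and 70 at 0.1. Without 1 library it ran from 1 to 49. The cause was not tested, except that thresholds and the filter change the calls by construction. The log2 fold change of Xcr1 (0.028) turned to -0.099 without WT replicate 3, -0.17 without WT replicate 1 and -0.13 without FTO_OE replicate 1, and was highest at 0.43 without WT replicate 2. Without WT replicate 2 that of Batf3 turned to 0.055 and that of Cd209a to 0.12; their lowest values without 1 library were -0.43 and -0.73. The other 6 members tested kept their direction. Samples with the same replicate number did not deviate together (correlations of 0.130, -0.334 and -0.353), so the numbers were not taken as pairs, and with the replicate block 0 members were called. Between the groups, samples with different numbers had correlations of -0.216 to 0.470. The highest was that of WT replicate 3 with FTO_OE replicate 2, and its cause was not tested. The 5 calls among CD8 T and NK cell genes became 0 with the block and 13 with no filter on low counts. Other scalings moved the median of all genes to at most 0.040. List medians ran over the alternatives from -0.16 to 0.032 for cDC1, -0.15 to 0.12 for cDC2, -0.034 to 0.12 for shared, -0.31 to -0.018 for migratory and 0.11 to 0.37 for pDC genes. Few reads limit the precision for Xcl1, Batf3 and Siglech.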

Other observations

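Over the 6 libraries, the genes whose log2 CPM followed that of Xcr1 most closely among 13321 genes with an average log2 CPM of at least 1 were Zfp358 (Pearson r = 0.988), Rpf2 (0.981), Cd209b (0.981) and Polr1a (0.979). For Cd209a they were Wasf3 (0.991), Gabra3 (0.985), Cpd (0.984) and C2 (0.981). These are the best of many genes over few points that share libraries and scaling, and they carry no test. Cd209b, a lectin gene of marginal zone macrophages, is a paralog of Cd209a. Those for Xcl1 rest on 1 to 10 reads a library and are not given.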
